A study of Peromyscus californicus with 17 samples.

Results

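The proteasome subunit genes were examined in lung RNA of 17 male *Peromyscus californicus*, the monogamous California mouse, with 1 library per animal. They were taken by symbol, as every gene of the table named Psma, Psmb, Psmc or Psmd plus a number, leaving out the inducible catalytic subunits Psmb8, Psmb9 and Psmb10. This gave 36 of 27786 genes. Bonded males (n = 6, B1 to B6) had lived with a female for 4 months. Bond-disrupted males (n = 6, BD1 to BD6) had been paired for 4 months and then removed from the mating cage, and lungs were taken 7 days later. Virgin males (n = 5, V2 to V6) of similar age were housed in groups of males. All animals were of an outbred stock and 12 to 15 months old, and same-numbered animals were siblings or cousins. Whole lung is a mixture of cells, so fewer cells of a type and less RNA per cell cannot be told apart.

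The proteasome degrades proteins that carry ubiquitin. Its barrel-shaped core particle (20S) is a stack of rings, with alpha subunits (Psma) outside and beta subunits (Psmb) inside, and the catalytic sites sit on Psmb5, Psmb6 and Psmb7. The regulatory particle (19S) caps the barrel. It consists of a base with a ring of ATPases (Psmc) that unfold substrates and of a lid that holds the deubiquitinase Psmd14, and Psmd5, Psmd9 and Psmd10 are chaperones that help to assemble the base and leave it. In cells exposed to interferon, Psmb8, Psmb9 and Psmb10 replace the catalytic subunits and form the immunoproteasome, which shapes peptides for antigen presentation.

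The unit of all levels is FPKM, reads per kilobase of gene and per 1000000 (M) reads. In the deposited table the length that divides a gene is not its own but that of the gene 1 row above in the first column, 2 rows above in the second column, and so on to the seventeenth column. The members were divided by lengths from 65 bases, in the most extreme case, to 38521 bases. As deposited, the highest animal exceeded the lowest by 5.73 to 222 times across the 34 expressed members (median 83.4). Reads were therefore recovered for every value of the members and divided by each gene's own length. The lengths were chosen to give whole reads, and all 612 values of the 36 members came out within 0.01 of one. With the own length the highest animal exceeded the lowest by 1.24 to 1.77 times (median 1.45).

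Psma6, an alpha ring subunit, was called in the deposited values and not with its own length. It was the 1 member that passed an adjusted p of 0.1 and a 2-fold change in the deposited values, in virgin against bonded males, where 0.607% of all genes passed (113 of 18602). In the deposited values no member passed in bond-disrupted minus bonded males (0.215% of all genes) or in virgin minus bond-disrupted males (0.188%). The bonded males were listed at 5.89, 52.9, 15.1, 66.2, 80.0 and 10.9 FPKM. The virgin males were listed at 412, 420, 512, 508 and 475 FPKM, far above all bonded males. The log2 fold change of Psma6 was 4.11 ± 0.95 (SE), with a limma adjusted p of 0.0834. In all 5 virgin males the reads had been divided by 164 bases, the length of small nuclear RNA genes above Psma6, and in the bonded males by 989 to 13833 bases. With the 986 bases of Psma6 itself the bonded males had 82.7, 81.8, 86.9, 89.5, 80.2 and 74.1 FPKM. The virgin males had 68.5, 69.8, 85.2, 84.5 and 79.0 FPKM, within or just below the bonded range. The log2 fold change of Psma6 with its own length was -0.09 ± 0.09 (SE, limma, adjusted p = 1.0).

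**Figure D1:**
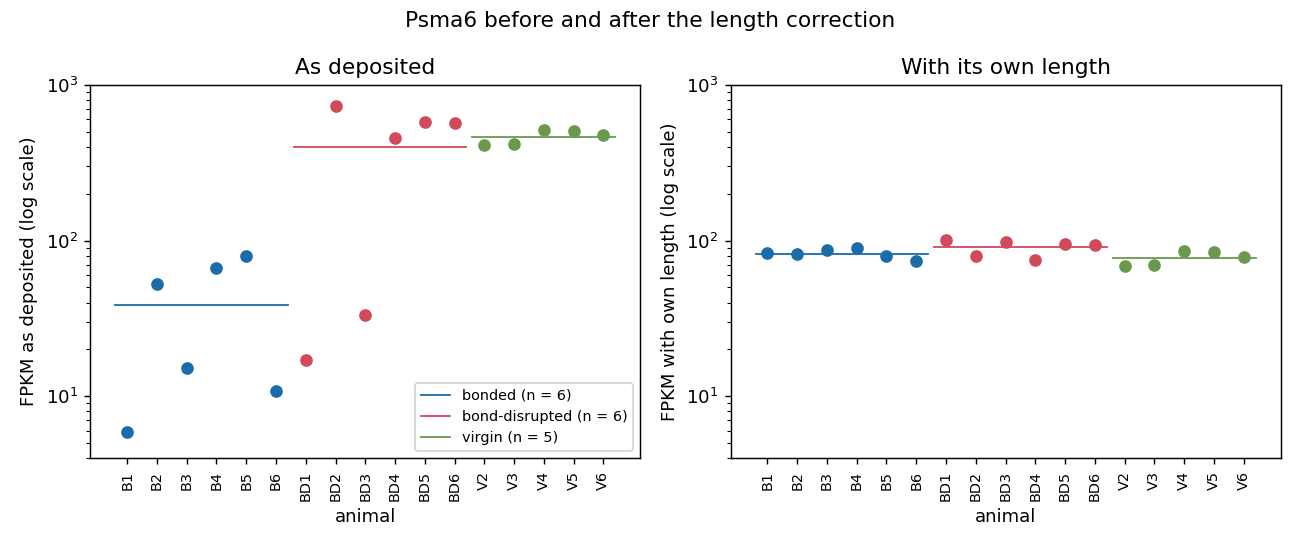
FPKM of Psma6 (y axis, log scale) in each of 17 animals (x axis), as deposited on the left and with its own length on the right; points are animals and lines are group means. The virgin males stand above the bonded males on the left, at 412 to 512 against 5.89 to 80.0 FPKM, and overlap with them on the right.

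Of the members, 34 were expressed at a mean of 1 FPKM or more, and the order of their levels was nearly the same in every animal. Each animal's order of the 34 genes correlated with the order of their means at a Spearman rho of 0.959 to 0.995 across genes. The 14 expressed core particle genes had a median level of 79.8 FPKM and the 17 regulatory particle genes one of 49.3 FPKM. The ratio of these medians lay between 1.38 and 1.73 in the 17 animals. The 3 chaperones were lower, with a median of 18.1 FPKM.

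Within the alpha ring, which gates the barrel, Psma7 was highest at 99.4 ± 12.1 FPKM and Psma1 lowest among the expressed genes at 36.7 ± 3.97 FPKM (SD, n = 17 here and in the next sentences). The beta ring ranged from Psmb1, a non-catalytic subunit, at 128 ± 12.1 FPKM to Psmb7, the trypsin-like subunit, at 68.8 ± 8.40 FPKM. The caspase-like Psmb6 had 91.3 ± 9.42 FPKM and the chymotrypsin-like Psmb5 79.2 ± 9.69 FPKM. Subunits of a ring are present in equal copies in the particle, and their transcripts differed by 2.71 times in the alpha ring and 1.86 times in the beta ring. Among the ATPases, Psmc3 had 71.4 ± 6.19 FPKM and Psmc6 38.6 ± 3.28 FPKM. In the rest of the base, the ubiquitin receptor Psmd4 had 59.1 ± 4.94 FPKM and the large scaffold Psmd1 36.3 ± 2.33 FPKM. In the lid, Psmd8 had 60.3 ± 5.30 FPKM and Psmd11 30.3 ± 1.91 FPKM. Psmd9 was the highest chaperone at 21.3 ± 2.89 FPKM, and Psmd10, also known as the oncoprotein gankyrin, the lowest at 14.4 ± 2.24 FPKM.

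A pair of members stood apart from these. Psma8, which replaces Psma7 in the proteasome of male germ cells, had 0.182 to 1.41 FPKM in the 17 animals, from 10 to 80 reads. Psmb11, the catalytic subunit of thymic cortical epithelium, had 0.0407 to 0.545 FPKM, from 5 to 98 reads. Their ranges overlapped between all groups. Psma8 reached 1 FPKM in 2 animals and was tested, and Psmb11 reached it in none, so 35 of the 36 members were tested. The 34 expressed members had 370 to 10883 reads per animal, with a median of 3422, and libraries of 30.8 to 68.2 M reads.

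**Figure D2:**
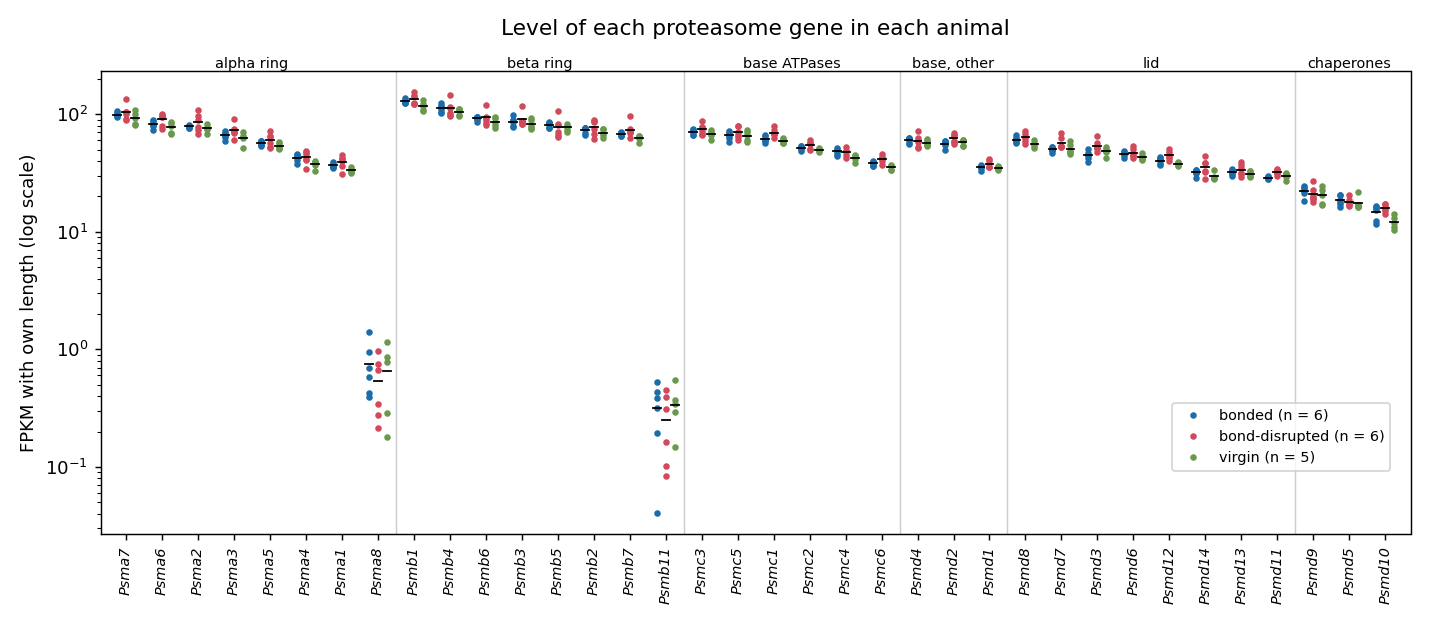
FPKM with own length (y axis, log scale) of the 36 proteasome genes (x axis, by position in the complex and falling mean) in each animal; points are animals and black bars group means. All genes but Psma8 and Psmb11 lie between 10.4 and 154 FPKM in every animal, with groups close together.

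The spread between animals of 1 group was small. The SD of log2(FPKM + 1) within groups was 0.06 to 0.19 over the 34 genes, with a median of 0.13. The median was 0.17 over all 6550 genes of at least 10 FPKM, 0.23 over 56 cytosolic ribosomal protein genes and 0.20 over 69 subunits of oxidative phosphorylation. The smallest SDs were those of the lid subunit Psmd11 (0.06) and of Psmd1 (0.07). The largest were those of Psma8 (0.32), which had few reads, and of Psmd9 (0.19).

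The first comparison set males that had lost the partner against males still bonded. Bond-disrupted males had also left the mating cage and virgins lived with other males, and the part of housing was not tested. No member differed between bond-disrupted and bonded males by the study's criteria in limma, an adjusted p below 0.1 with at least a 2-fold change, and 0.0% of the 14735 genes tested did. Fold changes are on the log2(FPKM + 1) scale and limma's tests are two-sided. At an unadjusted p under 0.05 there were 5 of 35 members, all 5 higher in bond-disrupted males, where 2.86% of all genes tested were higher and 3.13% lower at that p. The voom fit on recovered reads gave 7 of 36 members and 6.50% of all genes in either direction, and the fit blocked on family number 4 of 35 members and 5.73% of all genes. Of the 35 members, 28 had a positive log2 fold change, against 51.9% of all genes. The median log2 fold change was 0.08 over the members and 0.01 over all genes tested. With quantile normalization it was 0.03 over the members, of which 11 were negative, and without BD1 it was 0.04, with 12 negative.

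Of the 5 members, 4 belonged to the lid, in which all 8 genes had positive values and the median was 0.15. All 7 expressed alpha ring genes were positive as well, with a median of 0.09. So were 5 of 6 ATPases, 5 of 7 beta ring genes and 2 of 3 other base subunits, while 2 of 3 chaperones were negative. The smallest p was that of Psmd3, a scaffold subunit of the lid. Psmd3 had 51.1, 39.5, 42.6, 45.0, 45.1 and 46.4 FPKM in bonded males and 65.2, 51.6, 52.1, 51.5, 47.5 and 57.4 FPKM in bond-disrupted males. The groups overlapped only through the bonded male B1. The log2 fold change of Psmd3 was 0.26 ± 0.08 (SE), with an adjusted p of 0.789 in limma.

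Psmd11, which is needed for the assembly of the particle, lay between 27.9 and 29.6 FPKM in bonded males and between 29.9 and 34.1 FPKM in bond-disrupted males. The groups of Psmd11 did not overlap, which held for 0.149% of all genes tested in this direction and 0.129% in the other. Its log2 fold change was 0.15 ± 0.05 (SE, limma, adjusted p = 0.789). The lid subunit Psmd7, a partner of Psmd14, was the other of 2 members without overlap, with 46.5 to 52.9 FPKM in bonded and 53.1 to 68.7 FPKM in bond-disrupted males. The ATPase Psmc1 had 57.1 to 66.6 FPKM in bonded and 62.7 to 80.1 FPKM in bond-disrupted males, with a log2 fold change of 0.17 ± 0.06 (SE, limma, adjusted p = 0.789). The last of the 5, the lid subunit Psmd12, had 36.8 to 43.2 FPKM in bonded and 40.1 to 50.5 FPKM in bond-disrupted males. Without the bond-disrupted male BD1, 3 of 35 members were at an unadjusted p under 0.05 in this comparison, as were 8.35% of all genes in that fit, so the members' share was near that of all genes.

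The catalytic subunits did not pass the test at an unadjusted p of 0.05 in this comparison. Psmb5 had 81.4 ± 4.59 FPKM in bonded and 78.6 ± 15.8 FPKM in bond-disrupted males. Psmb6 had 92.6 ± 3.48 and 94.0 ± 13.8 FPKM, and Psmb7 had 68.6 ± 2.27 and 74.2 ± 11.7 FPKM (SD, n = 6 in each group). Among the bond-disrupted males, BD1 had 107, 120 and 96.5 FPKM of Psmb5, Psmb6 and Psmb7 and was the highest for each.

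The second comparison set males that had never bonded against bonded males. No member was called, as with 0.0% of all genes tested. At an unadjusted p under 0.05 there were 2 of 35 members, both lower in virgins, where 1.53% of all genes were lower and 2.11% higher at that p, and voom also gave 2 (3.57% of all genes in either direction). Blocking on family number gave 3, Psmc4 and Psmd10 lower and Psmd3 higher in virgins, and 3.90% of all genes. The additive fit of the length shift gave 1, Psmd11, higher in virgins, and 3.34% of all genes. A fit of only these 2 groups gave 6, all lower in virgins, and 5.31% of all genes. Without BD1 there were 5 and 4.35% of all genes. Without B2, B4, B5 or V2 there was 1, with 2.87 to 3.39% of all genes. Of the members, 31 had a negative log2 fold change, against 47.9% of all genes, and the median was -0.09 over the members and 0.01 over all genes. The groups of every tested member overlapped, while 0.346% of all genes were without overlap and higher in virgins and 0.19% without overlap and lower. The additive fit had 25 negative values. All 7 expressed alpha ring genes, all 7 beta ring genes and all 6 ATPases had negative values.

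The ATPase Psmc4 had 43.8 to 51.8 FPKM in bonded males and 43.0, 38.8, 44.2, 41.5 and 44.8 FPKM in virgins. The ranges overlapped through the lowest bonded male. Its log2 fold change was -0.18 ± 0.07 (SE, limma, adjusted p = 1.0). Psmd10 had 11.6 to 16.5 FPKM in bonded males and 10.4 to 14.3 FPKM in virgins, with a log2 fold change of -0.25 ± 0.10 (SE, limma, adjusted p = 1.0). The third smallest p was that of Psma4 in the alpha ring, with 42.8 ± 3.03 FPKM (SD, n = 6) in bonded males and 37.6 ± 2.76 FPKM (SD, n = 5) in virgins.

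The third comparison, between virgin and bond-disrupted males, had the most members at small p values. It shares its animals with the other two. No member was called, again with 0.0% of all genes tested. At an unadjusted p under 0.05 there were 14 of 35 members (40.0%), all lower in virgins, while 2.12% of all genes tested were lower and 2.23% higher at that p. A block on family number gave 8 members and 3.93% of all genes in either direction, and voom on recovered reads gave 17 members and 4.63% of all genes. A fit of only these 2 groups gave 10 members (3.57% of all genes), and the additive fit of the length shift 10 (4.13%). Quantile normalization gave 11 (4.03%), and a median-ratio factor 18 (4.66%). Of the 35 members, 34 had a negative log2 fold change, all but Psma8, against 48.4% of all genes. The median log2 fold change was -0.15 over the members and 0.00 over all genes tested. With quantile normalization it was -0.11 over the members. The smallest adjusted p was 0.942 for members and for all genes in limma.

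The 14 genes came from most of the complex. They were the alpha subunits Psma1, Psma3, Psma4 and Psma6, the beta subunits Psmb1 and Psmb7, the ATPases Psmc1, Psmc2, Psmc4 and Psmc6, the lid subunits Psmd8, Psmd12 and Psmd14, and the chaperone Psmd10. The remaining base subunits Psmd1, Psmd2 and Psmd4 had log2 fold changes of -0.05 to -0.12, none at that p. The largest fold among the 34 expressed genes was 1.296, that of Psmd10, well under the 2-fold of the study's criterion.

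Psmd10 had 14.311 (lowest), 16.028 (median) and 17.267 (highest) FPKM in bond-disrupted males and 10.376, 14.310, 10.947, 11.995 and 13.022 FPKM in virgins. The ranges met at V3 and BD3 without crossing, a pattern that 0.115% of all genes tested had in this direction and 0.143% in the other. The log2 fold change of Psmd10 was -0.37 ± 0.10 (SE, limma, adjusted p = 0.942). Psmd12 had 47.7, 50.5, 45.0, 42.5, 43.5 and 40.1 FPKM in bond-disrupted males and 39.2, 37.2, 36.5, 38.5 and 38.3 FPKM in virgins. It was the other of the 2 members whose groups did not overlap, with a log2 fold change of -0.23 ± 0.07 (SE, limma, adjusted p = 0.942). Psmc6 had 36.8 to 45.5 FPKM in bond-disrupted males and 33.4 to 37.3 FPKM in virgins. Its log2 fold change was -0.22 ± 0.06 (SE, limma, adjusted p = 0.942), and the ranges overlapped through BD2.

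The count of 14 rested in part on single animals. It was 9 without BD1, 8 without V2 and 8 without V3, where 4.57%, 4.85% and 3.12% of all genes were at that p in either direction. Without other single animals it lay between 11 and 19, with 7.24% of all genes in the fit that gave 19, the one without BD2. Without BD1 the median log2 fold change of the members was -0.10, with 30 negative values.

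**Figure D3:**
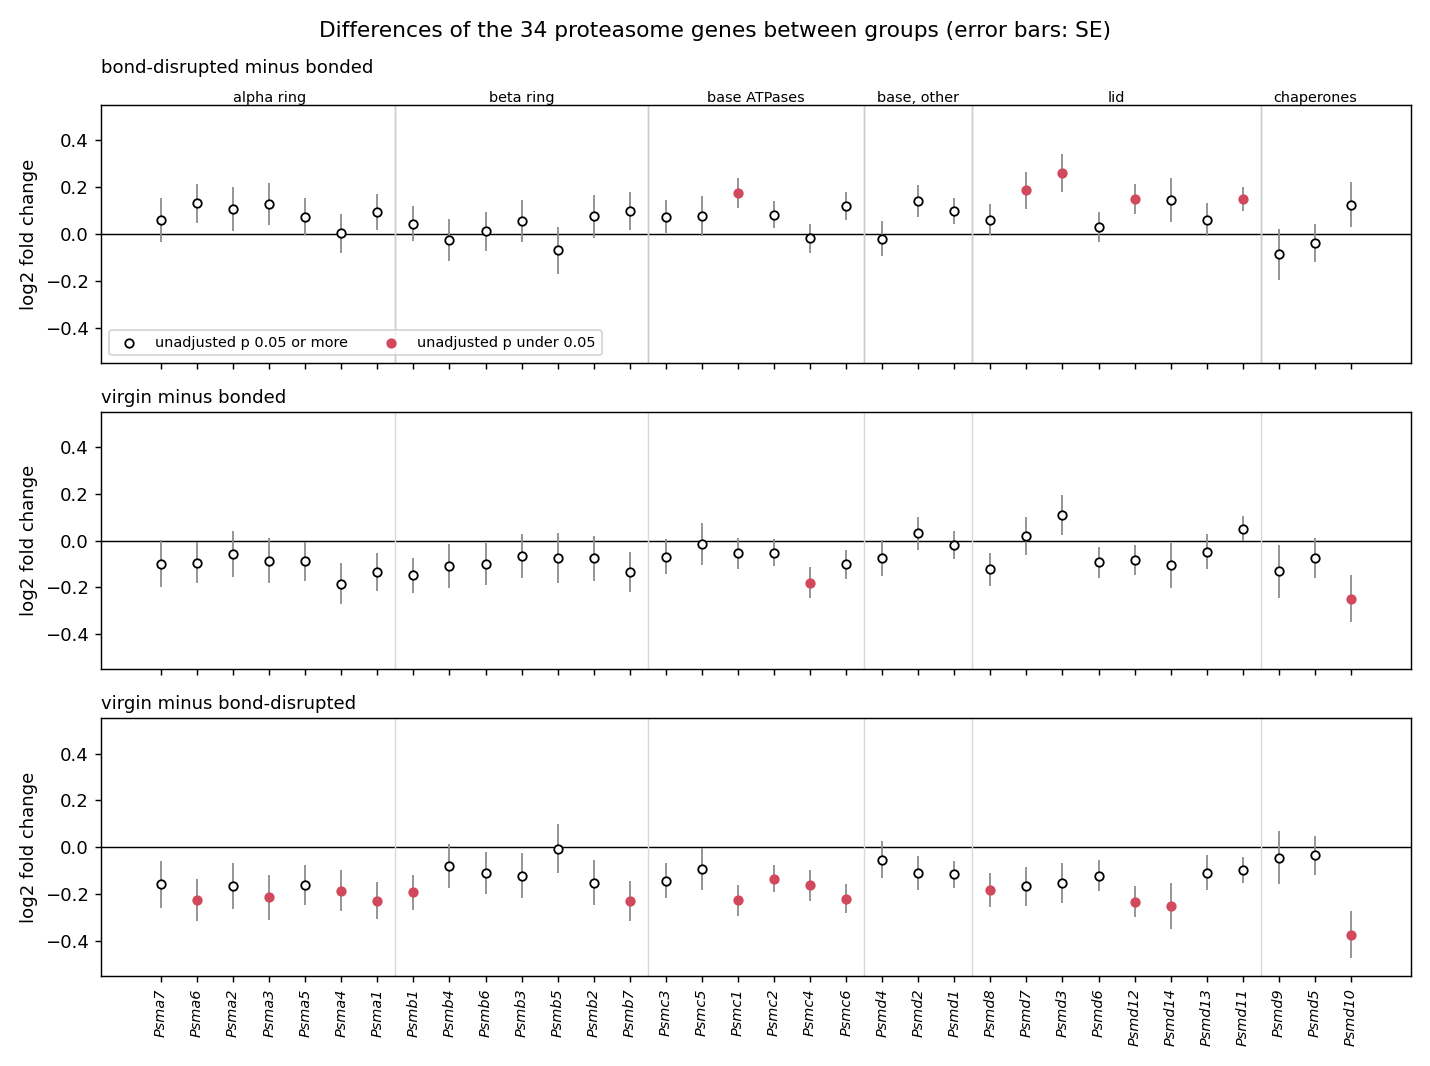
Log2 fold change on the log2(FPKM + 1) scale (y axis, error bars SE) of the 34 expressed proteasome genes (x axis) in the 3 comparisons; filled points have an unadjusted p under 0.05 in limma. In virgin minus bond-disrupted males all 34 points lie below 0, from -0.37 to -0.01. In bond-disrupted minus bonded males the 8 lid genes and the 7 alpha ring genes lie above 0.

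The mean of log2(FPKM + 1) over the 34 genes gives 1 value per animal. It was 5.69 to 5.79 in bonded males, 5.70 to 6.03 in bond-disrupted males and 5.58 to 5.72 in virgins. The groups overlapped, with BD1 highest and V2 and V3 lowest. The group means were 5.74 ± 0.04, 5.82 ± 0.12 and 5.66 ± 0.07 (SD, n = 6, 6 and 5). The mean in virgins minus that in bonded males was -0.08 for the members, -0.11 for the ribosomal protein genes and -0.13 for the oxidative phosphorylation subunits. Against bond-disrupted males these differences were -0.16, -0.11 and -0.09. In bond-disrupted minus bonded males they were 0.08, 0.00 and -0.04. For the members, quantile normalization gave 0.04 and leaving out BD1 gave 0.03. For the core particle alone, bond-disrupted males spread from 6.09 to 6.59 and bonded males from 6.23 to 6.30. The chaperones had means of 4.26 in bonded, 4.26 in bond-disrupted and 4.11 in virgin males.

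**Figure D4:**
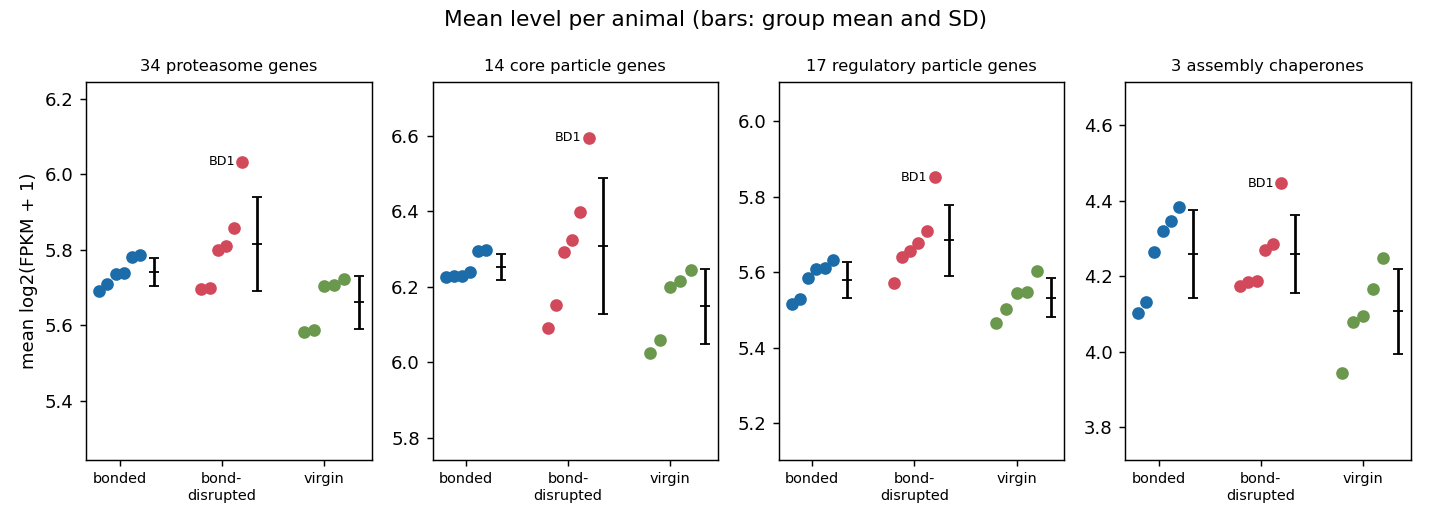
Mean log2(FPKM + 1) per animal (y axis) of the 34 expressed proteasome genes and of 3 subsets, by group (x axis); points are animals and bars show group mean and SD. BD1 is the highest animal in each panel, and the bond-disrupted males spread most in the core particle, from 6.09 to 6.59.

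Levels of the members correlated with each other between animals. After the mean of each group was subtracted, the median Pearson r over the 561 pairs of the 34 genes was 0.48 (n = 17 animals), and 519 pairs were positive. Over all pairs of the 13175 genes of at least 1 FPKM the median was 0.00, while it was 0.78 over the pairs of the 56 ribosomal protein genes and 0.69 over those of the 69 oxidative phosphorylation subunits. The 91 pairs within the core particle were all positive, with a median of 0.70. Pairs within the beta ring had a median of 0.76, within the alpha ring 0.69, among the ATPases 0.58 and in the lid 0.31. The highest pair was Psmb1 with the lid subunit Psmd13 (r = 0.92), and the lowest Psmd12 with Psmd14 (r = -0.38), both in the lid. All these values share 17 libraries and their depths, and are given as a description.

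Psmb6 and Psma7 followed the mean of the other members most closely, both at r = 0.92. Psmd10 (r = 0.02) and Psma8 (r = -0.01) followed it least. Among non-members of at least 1 FPKM the most alike were the splicing factor component Snrpd2 (r = 0.94, 66.1 FPKM), the complex I subunit Ndufs8 (r = 0.93, 43.4 FPKM), Tmem256 (r = 0.92, 48.2 FPKM), LOC128114393 (r = 0.92, 65.3 FPKM) and Mlf2 (r = 0.92, 104 FPKM). The mean of the 34 genes correlated with the mean of the 69 oxidative phosphorylation subunits at 0.86 and with that of the 56 ribosomal protein genes at 0.62.

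Gene length moved with this pattern. The 212 other genes with an r of at least 0.8 to the mean of the members had a median length of 1159 bases, the 78 with an r of at most -0.8 one of 9002 bases, and all 13141 one of 3080 bases. The mean log2 level of 1261 genes under 1000 bases minus that of 3237 genes over 5000 bases correlated with the mean of the members at 0.79 (n = 17, group means removed). When each animal's trend of level on gene length was removed, the median r between the 34 genes was 0.19, and within the core particle 0.36. It was then 0.43 in the alpha ring, 0.34 in the beta ring, 0.52 over the ribosomal protein genes and 0.27 over the oxidative phosphorylation subunits. Quantile normalization gave 0.18 over the 34 genes, and leaving out BD1 gave 0.33. The short-minus-long value was 1.00 ± 0.09 in bonded, 0.95 ± 0.15 in bond-disrupted and 0.89 ± 0.19 in virgin males (SD, n = 6, 6 and 5), with overlapping ranges. With the length trend removed, 16 members were at an unadjusted p under 0.05 in virgin minus bond-disrupted males, as were 4.97% of all genes in that fit. The members' median log2 fold change there was -0.13, against -0.15 before the removal. In virgin minus bonded males it was -0.05, against -0.09, with 29 negative values. In bond-disrupted minus bonded males it was 0.09, against 0.08.

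**Figure D5:**
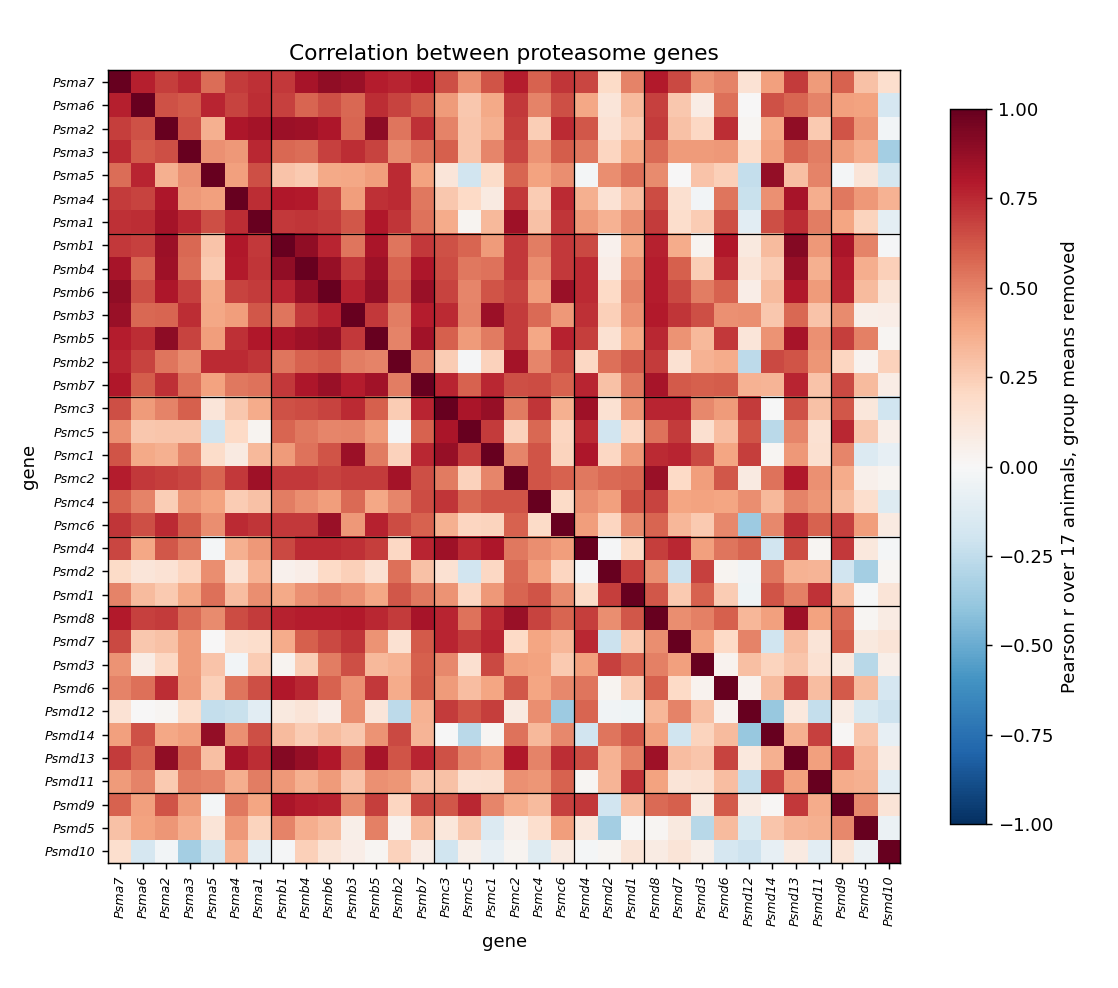
Pearson r between the 34 expressed proteasome genes (both axes, in the order of the level plot) over 17 animals with group means removed; colour gives r and black lines divide the parts of the complex. The alpha and beta ring blocks are positive throughout, while Psmd10, Psmd12 and Psmd2 show values near or below 0 with many genes.

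The inducible catalytic subunits were expressed in every lung. Psmb8 had 84.2, Psmb9 73.5 and Psmb10 52.1 FPKM on average over the 17 animals. The geometric mean ratio was 1.05 for Psmb8 to Psmb5, 0.790 for Psmb9 to Psmb6 and 0.751 for Psmb10 to Psmb7. Single animals had log2 ratios of -0.25 to 0.66, -0.89 to 0.20 and -0.85 to 0.05. Psmb8 correlated with Psmb9 at 0.93 and with Psmb10 at 0.72 (n = 17, group means removed). With the mean of the members Psmb8 correlated at 0.32, Psmb9 at 0.49 and Psmb10 at 0.59.

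The log2 ratio of Psmb8 to Psmb5 was 0.07 ± 0.33 in bonded males, 0.17 ± 0.28 in bond-disrupted males and -0.04 ± 0.17 in virgins (SD, n = 6, 6 and 5). The ratio of Psmb9 to Psmb6 was -0.33 ± 0.36, -0.40 ± 0.35 and -0.28 ± 0.27, and that of Psmb10 to Psmb7 was -0.40 ± 0.25, -0.48 ± 0.25 and -0.34 ± 0.24. None of the 9 comparisons passed a two-sided exact permutation test. The largest difference was -0.20 for Psmb8 to Psmb5 in virgin minus bond-disrupted males (exact p = 0.190, adjusted p = 0.784).

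Of a list of 39 further genes of the pathway, the 3 inducible subunits, activators, chaperones, associated enzymes, ubiquitin genes, shuttle factors and regulators, 36 were in the table and 33 could be tested. None was called in a comparison. At an unadjusted p under 0.05, 3 were higher in bond-disrupted than bonded males, 1 was lower in virgin than bonded males and 2 were lower in virgin than bond-disrupted males, where the shares of all genes tested in these directions were 2.86%, 1.53% and 2.12%. The first 3 were the shuttle factors Ubqln1 and Rad23b and the proteasome-bound thioredoxin-like Txnl1. Ubqln1 had 49.5 to 59.0 FPKM in bonded and 54.0 to 60.2 FPKM in bond-disrupted males, with a log2 fold change of 0.15 ± 0.06 (SE, limma, adjusted p = 0.789). Rad23b had 44.4 ± 2.82 and 49.7 ± 4.05 FPKM in these groups (SD, n = 6 each). Txnl1 had 23.3 ± 0.723 FPKM in bonded, 25.99 ± 2.53 FPKM in bond-disrupted and 22.9 ± 1.33 FPKM in virgin males. The 1 lower in virgin than bonded males was the assembly chaperone Psmg2, with 15.2 ± 1.87 against 17.8 ± 1.61 FPKM. The next smallest p in this comparison was that of Keap1, which targets Nfe2l2 for degradation, with 36.2 ± 1.22 FPKM in virgin and 33.8 ± 0.978 FPKM in bonded males and a log2 fold change of 0.09 ± 0.05 (SE), not under an unadjusted p of 0.05. Txnl1 and Ngly1, which processes the proteasome's transcription factor, were lower in virgin than bond-disrupted males, Ngly1 with 20.9 ± 2.16 against 23.9 ± 2.04 FPKM. That factor, Nfe2l1, had 69.0 ± 9.06 FPKM in bonded, 76.3 ± 10.3 FPKM in bond-disrupted and 74.4 ± 9.56 FPKM in virgin males, and correlated with the mean of the members at -0.21.

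The tissue label was checked with 14 marker lists, of which 48 of 65 genes were measured. The type 2 alveolar list, led by the surfactant protein gene Sftpc, summed to at least 15219 FPKM in every animal and the club cell list to at least 49399 FPKM. Summed levels overlapped between all groups for all 14 lists. Single markers at an unadjusted p under 0.05 were Sftpb, a surfactant protein gene and 1 of 4 type 2 markers, and Acta2 and Myh11, 2 of 4 smooth muscle markers, and none was called. In bond-disrupted minus bonded males these were 3 of the 48 markers, where 5.99% of all genes were at that p in either direction. In virgin minus bonded males it was Sftpb alone, 1 of 48, where 3.64% of all genes were. Sftpb had means of 2312 FPKM in bonded, 3109 FPKM in bond-disrupted and 3049 FPKM in virgin males, with log2 fold changes of 0.43 ± 0.14 and 0.39 ± 0.14 (SE) against bonded males. In bond-disrupted minus bonded males the log2 fold changes of Acta2 and Myh11 were -0.54 ± 0.24 and -0.59 ± 0.24 (SE). The smooth muscle list summed to 494 to 1150 FPKM in bonded, 293 to 976 FPKM in bond-disrupted and 494 to 828 FPKM in virgin males. A list of cardiac muscle genes summed to 46.5 to 467 FPKM in bonded, 79.0 to 278 FPKM in bond-disrupted and 113 to 355 FPKM in virgin males. The correlation of the lists' log2 sums with the mean of the members was -0.15 to 0.48 (n = 17, group means removed), and their part in the results was not tested.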

How the data were processed

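Lung RNA-seq libraries of 17 males were analysed, 1 per animal, made with a directional kit from total RNA. The authors deposited FPKM in 1 column per animal for 27786 genes. The submitters' processing notes name FastQC, Trim Galore 0.4.5, STAR 2.7.2, SAMtools 1.5 and featureCounts of Subread 1.5.3, and the genome build and annotation are not given in the sources used here. Symbols were matched to RefSeq names of assembly ASM782708v3.

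In the deposited FPKM, the length in column j is that of the gene j rows above. The depth of each library and the lengths were solved together as the values that give whole reads. Lengths were settled for 26401 of 27787 entries, and 98.5% of 351686 nonzero values lay within 0.01 of a whole read. Reads of a pair were counted singly, since 10.3 to 13.0% of low read numbers were odd. The depth was 30.8 to 68.2 M (1000000) reads, of which 97.2 to 104% was recovered. All values of 24836 genes, and of all 36 members, were recovered. The recovery and the fit were tested on simulated data, with planted folds of 0.25, 0.5, 2 and 4. The share of lengths that came out right was 0.9994, and 0 of 14534 unchanged genes were called. Folds as small as those of the members were not simulated.

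Own-length FPKM were taken as log2(FPKM + 1) and kept at 1 FPKM or more in at least 1 animal (14735 genes). limma 3.58.1 in R 4.3.3 fitted the 3 groups together, without a trend, with Benjamini-Hochberg adjustment over all genes of a comparison. A call needed an adjusted p below 0.1 together with a 2-fold change. Ratios used two-sided exact permutation tests adjusted over 9 tests. Python 3.11.15, numpy 2.4.6, scipy 1.17.1, pandas 2.3.3 and matplotlib 3.10.9 were used.

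The members, lists and tests were chosen with earlier results of these data known. Genes named with values were the catalytic subunits, members below the filter or tissue-restricted, the highest and lowest of each part of the complex, the 3 smallest p values per comparison, the 2 extremes of spread and of correlation with the other members, and the 5 most alike non-members. Of the pathway list, Psmb8, Psmb9, Psmb10, Nfe2l1 and the 2 smallest p values per comparison were named. Psma6, Psmd7, the single markers and other genes named outside this rule were named after their values were seen. Same-numbered animals are relatives per the study's figure legend, which is the basis of the block. Their deviations from group means correlated at -0.36 to 0.44 over 13175 genes, above 0.1 in 7 of 16 pairs. Alternatives were other pseudocounts, filters, normalizations, a trend, 2 groups only, the family block, voom on recovered reads, the deposited values, an additive fit of the shift, other call rules, and leaving out each animal.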

Additional observations from a re-analysis of the deposited data

Results flagged for a closer look

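A sample was marked where its gap to the next sample of the group exceeded Dixon's 95% critical value. Of 72 groups of values tested, 4 were marked, and chance marks about 1 in 20. BD1 was the highest bond-disrupted male for Psmb6 (120 FPKM, next 95.0), Psmb7 (96.5 FPKM, next 75.2) and Psma7 (135 FPKM, next 105). B3 was the lowest bonded male for Psmb6 (86.2 FPKM, next 91.8). These genes correlate with each other over animals, so the 3 values of BD1 are not separate observations.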

How the results depend on the processing

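The number of proteasome genes called was 0 in each comparison and stayed 0 under every alternative run except the deposited values, with 1 (Psma6) in virgin minus bonded males. As deposited, 40, 113 and 35 of all genes were called in bond-disrupted minus bonded, virgin minus bonded and virgin minus bond-disrupted males, against 0, and the difference in the mean log2 level of the members was 0.20 and 0.0151 in the first 2 (0.08 and -0.08 with own lengths). Leaving out 1 animal gave 0 to 1 of all genes called in the first 2 comparisons (1 without B4 in both and without BD2 in the second) and 0 in the last, and differences in the mean level of 0.03 (without BD1) to 0.10, -0.10 to -0.06 and -0.18 to -0.11. The count of members at an unadjusted p under 0.05 was 5 in the first comparison, 8 without the filter and 2 as deposited, and 3 (without BD1) to 7 without 1 animal. In the second it was 2, and became 4 without the filter, 6 with only the 2 groups, 5 with quantile normalization, 4 with the median-ratio factor, 6 as deposited and 1 with the additive fit, and 1 (without B2, B4, B5 or V2) to 5 (without BD1, and 4 without BD2) without 1 animal. In the last it was 14, 8 with the replicate block by family, 6 as deposited and 8 (without V2 or V3, and 9 without BD1) to 19 without 1 animal. With the block the first 2 comparisons had 4 and 3 such members, and no gene was called in any comparison. Quantile normalization took the difference in the mean level of the first comparison from 0.08 to 0.04. The median correlation between members was 0.48, -0.00247 as deposited, 0.18 with quantile normalization and 0.19 with the length trend removed (added once the data had been seen), and 0.33 to 0.54 without 1 animal. Named fold changes reversed in 3 of 290 values, in virgin minus bonded males: Psmc4 to 0.80 and Psma6 to 4.11 as deposited, and Psma6 to 0.0209 with the additive fit. The differences in the ratios of inducible to constitutive subunits changed sign in 13 fits, all short of the threshold. As deposited, the difference was -0.16 for Psmb8 to Psmb5 and 0.13 for Psmb9 to Psmb6 in the first comparison, and -0.55 and -0.69 for Psmb9 to Psmb6 in the second and last, and the additive fit gave -0.0207 in the second. Without 1 animal the ratio of Psmb9 to Psmb6 differed by -0.17 to 0.0425 in the first and -0.0329 to 0.16 in the second comparison, Psmb8 to Psmb5 by -0.17 to 0.00859 and Psmb10 to Psmb7 by -0.0335 to 0.13 in the second. Other than the length shift, the cause was not tested. Psma8 and Psmb11 rest on at most 98 reads in an animal, so small differences in them were not detectable at this depth.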
